A study of Mus musculus with 48 samples.

Results

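The 10 glycolysis enzyme genes described here are Hk1, Gpi1, Pfkm, Aldoa, Tpi1, Pgk1, Eno1, Pkm, Ldha and Ldhb. They were chosen by name, as the genes whose Ensembl identifiers map to these symbols, and make up 10 of the 38293 genes in the count table. Glycolysis breaks glucose down to pyruvate in the cytosol, in a chain of steps that these genes serve in the order given. Lactate dehydrogenase, built from LDHA and LDHB subunits, then interconverts pyruvate and lactate. Glucose is the main fuel of the brain, and lactate can pass from glia to neurons as a second one. LDHA-rich enzyme is best known for making lactate and LDHB-rich enzyme for using it.

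RNA was sequenced from the dorsovagal complex (DVC), a hindbrain centre that receives gut signals, and from the mediobasal hypothalamus (MBH), which holds feeding neurons of the arcuate nucleus. Male C57/Bl6 mice, 9 weeks old and on standard chow, had been fasted for 6 h and injected intraperitoneally at 10 µL/g with AC3174, AC170222, a combination of drugs, or saline. AC3174 is a GLP-1 receptor agonist, and AC170222 is taken as the CCK arm because the study's title names those hormones. The protocol gives 1 µg/kg for AC3174 and 2.5 µg/kg for AC170222, but the labels also write the second drug as AC710222, at 2.5 or 10 µg/kg, so its dose is not certain. How much of each drug the combination held, when tissue was taken and how many mice made up a sample is not given in the sources used here. From each clarified homogenate, a small volume gave total RNA (input), and the rest was pulled down with an antibody against ribosomal protein S6 phosphorylated at 240/244 (IP). This phosphorylation goes up when neurons are active. Region, fraction and treatment make 16 groups of 3 libraries, 48 in all. Nothing says that the 3 samples of a group came from separate mice, so p-values measure only the spread between these samples.

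Total counts per library spanned 102116189 to 191252522 for DVC IP against 29492622 to 95079227 for DVC input. The spans were 21782798 to 73940674 for MBH IP against 36542586 to 80084056 for MBH input. IP libraries were less complex: genes with at least 1 count numbered 9925 to 16796 in DVC IP against 16569 to 18200 in DVC input, and 6285 to 15913 in MBH IP against 12853 to 18657 in MBH input. The 6 IP libraries with fewer than 12000 genes were DVC AC3174 sample 3 and MBH saline 3, AC3174 samples 2 and 3, and AC170222 samples 2 and 3. One input library also stood apart: MBH input saline sample 2 had 12853 genes and the highest Aldoa, Tpi1, Pgk1, Eno1, Pkm, Ldha and Ldhb of the 12 MBH inputs. The region labels fitted their markers. All 7 DVC genes of a list with Chat, Dbh and Hox genes were called higher in DVC input than in MBH input, and all 7 measured MBH genes, with Pomc, Agrp and Npy among them, were called lower.

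Levels are given as CPM, each gene's counts scaled by library totals and TMM factors, and comparisons between genes use CPM per kb of exon. That length counts all annotated exon bases of a gene, which exceed those of any 1 transcript. The order of genes per length depends on this choice. In total RNA the chain was far from even. In DVC input, Aldoa (aldolase A, which splits the 6-carbon sugar) was highest per length at 1240 ± 87.8 CPM per kb (SD, n = 12 libraries). Hk1 (hexokinase 1, the entry step in brain) was lowest at 48 ± 6.7 CPM per kb. Between them, per-length levels in DVC input ran Ldhb 952 ± 89.7, Pkm 600 ± 41.2, Tpi1 510 ± 44.6, Eno1 214 ± 28.4, Ldha 135 ± 13.5, Pfkm 128 ± 18, Pgk1 109 ± 17.1 and Gpi1 86.4 ± 9.95 CPM per kb. Ldha, Pfkm and Pgk1 each overlapped the next gene in this order within 1 SD. In MBH input Aldoa again led, at 1230 ± 248 CPM per kb, followed by Tpi1 at 517 ± 93.5, Ldhb at 512 ± 169, Pkm at 495 ± 55.9 and Ldha at 279 ± 42.6. Tpi1, Ldhb and Pkm were within 1 SD of each other there, and Hk1 was again last at 42.7 ± 9.36 CPM per kb.

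**Figure D1:**
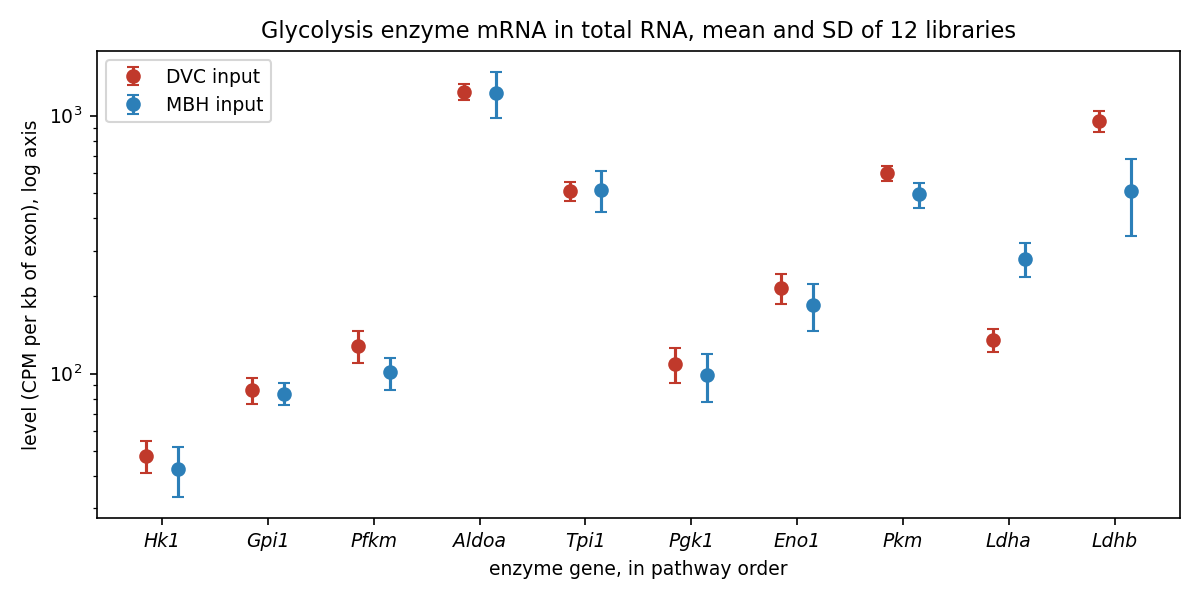
Per-length level of each enzyme gene in total RNA (CPM per kb of exon, log axis), as mean and SD over 12 libraries, DVC input in red at the left of each pair and MBH input in blue at the right. The 2 regions sit together at most steps and part at the last, where Ldhb averages 952 in DVC against 512 in MBH and Ldha 135 in DVC against 279 in MBH.

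The clearest difference between the regions lay at lactate dehydrogenase. Ldha was lower and Ldhb higher in DVC than in MBH total RNA. Ldha in DVC input had a lowest, median and highest level of 393, 449 and 542 CPM, against 753, 908 and 1300 CPM in MBH input. All 12 DVC libraries lay below all 12 MBH libraries, and Ldha was the only enzyme of the 10 to separate this way, while 3.39% of all genes did in either direction. Its log2 difference was -1.02 ± 0.08 (SE), a fold of 0.492, with an adjusted p of 1.24e-08 in edgeR's quasi-likelihood test with Benjamini-Hochberg adjustment over 18576 genes. Ldhb in DVC input had a lowest, median and highest level of 1310, 1470 and 1740 CPM, against 680, 721 and 1630 CPM in MBH input. Only MBH input saline sample 2, at 1633 CPM, reached the DVC range. The log2 difference for Ldhb was 0.93 ± 0.10, a fold of 1.91 (edgeR adjusted p = 1.86e-06), and 1.05 without that library.

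Within each library, Ldhb made up 73.9% to 81.6% of the lactate dehydrogenase reads of the pair in DVC input, against 41.3% to 55.7% in MBH input. The log2 ratio of Ldhb to Ldha reads, which no scaling between libraries can move, was 1.5 to 2.15 in DVC input and -0.51 to 0.33 in MBH input, with no overlap. Per kb of all annotated exons (3310 bases for Ldha, 1570 for Ldhb), Ldhb was 85.7% to 90.3% of the pair in DVC input and 59.7% to 72.6% in MBH input. The longest coding transcripts have 1815 and 1304 bases, and with those lengths the Ldhb share would be lower. Which of the pair was more abundant in every MBH input is therefore not settled. In these bulk samples, fewer cells of a type and less RNA per cell cannot be told apart. Cell type markers also differed between the regions: 8 of 10 neuron, 8 of 9 astrocyte and all 9 oligodendrocyte markers were called higher in DVC input than in MBH input. Their summed levels were 12000 to 14000 against 5500 to 7030 CPM for neurons, 1160 to 1760 against 490 to 670 CPM for astrocytes and 6150 to 9120 against 1430 to 3290 CPM for oligodendrocytes. None of these markers was at 0 in all libraries of either region, and their part in the lactate dehydrogenase difference was not tested.

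**Figure D2:**
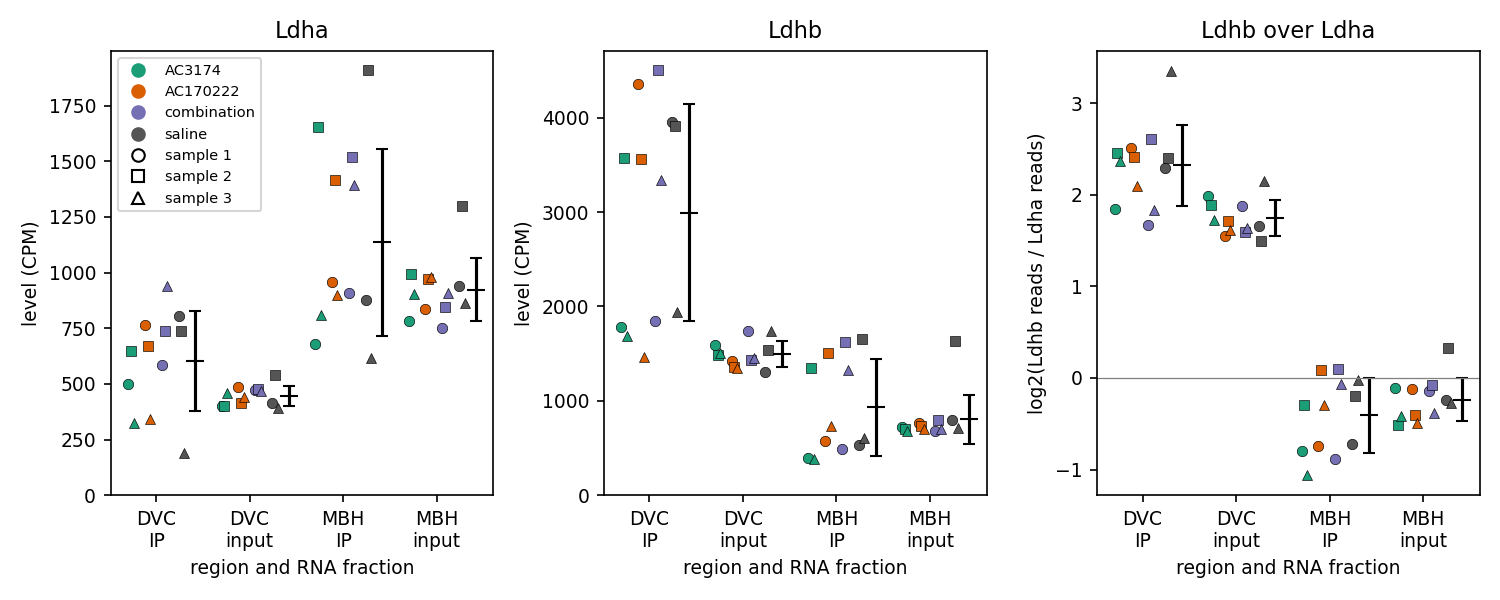
Level of Ldha (left, CPM) and Ldhb (middle, CPM) and the log2 ratio of their reads (right) in each library, with colour for treatment and shape for sample number; the bar gives mean and SD over 12 libraries. In input, the ratio runs from 1.5 to 2.15 in DVC and from -0.51 to 0.33 in MBH, with all treatments mixed within each cloud.

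Ldha lies at chr7:46841475-46855627 on the plus strand and Ldhb at chr6:142490249-142507957 on the minus strand (GRCm38, GENCODE M21). Since the pair moved in opposite directions, their RefSeq promoter windows (GRCm38.p6, 250 bases before to 50 after an annotated start) are printed below, 5′ to 3′ on the gene's strand. Ldha comes from chr7:46845554-46845853, the first of its 2 windows, and Ldhb from chr6:142507908-142508207. Capitals mark ACGTG on either strand, the core of the element that hypoxia-inducible factors bind, with overlapping matches joined.
Ldha promoter: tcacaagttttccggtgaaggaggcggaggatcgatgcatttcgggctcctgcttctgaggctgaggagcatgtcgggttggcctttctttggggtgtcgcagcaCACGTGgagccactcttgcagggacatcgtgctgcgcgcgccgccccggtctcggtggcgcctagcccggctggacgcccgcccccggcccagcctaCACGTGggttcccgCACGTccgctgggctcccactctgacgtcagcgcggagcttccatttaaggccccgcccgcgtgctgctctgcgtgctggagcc
Ldhb promoter: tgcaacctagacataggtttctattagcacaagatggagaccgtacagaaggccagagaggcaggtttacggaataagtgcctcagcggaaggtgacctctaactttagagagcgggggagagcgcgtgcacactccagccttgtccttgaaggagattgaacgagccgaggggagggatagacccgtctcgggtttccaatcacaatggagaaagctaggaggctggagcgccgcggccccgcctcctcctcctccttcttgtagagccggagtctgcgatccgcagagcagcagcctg
The Ldha window held 3 such matches, and the other Ldha window and the Ldhb window held 0. Across the enzymes, 6 of 10 genes had ACGTG in at least 1 window, compared with 21.8% of 27025 genes with a promoter in the table, and 8 of 20 enzyme windows did, compared with 19.6% of 32851 windows. The GC box GGGCGG, searched on both strands, was present for 7 of 10 enzyme genes and 38.2% of all genes. These matches describe letters, and nothing in the study measured binding to them.

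Apart from lactate dehydrogenase, region differences in total RNA were small. Including Ldha and Ldhb, 5 of the 10 enzymes were called between DVC and MBH input, 4 higher and 1 lower in DVC, where 21.9% of all genes tested were called, 11.7% higher and 10.2% lower. Pkm (pyruvate kinase, the last step to pyruvate) was higher in DVC, with 2770 to 3400 CPM in DVC input against 2130 to 3040 CPM in MBH input and a log2 difference of 0.30 ± 0.06 (edgeR adjusted p = 0.000684). Pfkm (the muscle-type phosphofructokinase, a committed and regulated step) was also higher in DVC, at 325 to 528 against 263 to 418 CPM and 0.36 ± 0.08 (adjusted p = 0.00473). Eno1 (alpha-enolase) differed by 0.25 ± 0.07 (adjusted p = 0.017), a call that was lost under upper-quartile scaling (0.19, adjusted p = 0.116).

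The remaining 5 enzymes were not called between the input regions. Log2 differences, DVC minus MBH, were 0.19 ± 0.09 for Hk1, 0.17 ± 0.09 for Pgk1 (phosphoglycerate kinase, the first step that yields ATP), 0.06 ± 0.06 for Gpi1 (glucose-6-phosphate isomerase), 0.04 ± 0.07 for Aldoa and 0.00 ± 0.08 for Tpi1 (triosephosphate isomerase). Their adjusted p ran from 0.167 to 1.0, and Hk1 was called without MBH input saline sample 3 (0.24, adjusted p = 0.0495). The median of the 10 enzymes was 0.18 on the log2 scale and that of all genes tested 0.10.

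Some rows could take up or lose reads of near-identical copies. Of all 50-base words in the longest coding transcript, 72.2% for Eno1 also occur in transcripts of other genes (70.5% shared with Eno1b). For Pgk1 it was 68.0% (67.9% with the retrogene Pgk1-rs7), for Pkm 34.4% and for Ldhb 27.0%. How far such copies moved the counts was not measured, so these values are uncertain. The share was 19.3% for Gpi1, 16.6% for Ldha, 13.5% for Aldoa, 7.5% for Tpi1 and 0 for Hk1 and Pfkm. Since the library kit keeps no strand, reads where exons of Hk1 overlap the antisense gene Hk1os, or those of Gpi1 the antisense gene Gm26762, could not be told apart.

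Related genes of the pathway, taken from lists of isozymes, transporters and pyruvate-handling genes, also differed between the input regions. Among 16 tested isozymes and other glycolytic genes, 3 were called higher in DVC. Aldoc, the aldolase of astrocytes and Purkinje cells, averaged 3020 ± 411 CPM in DVC input and 1300 ± 179 CPM in MBH input (SD, n = 12 each), a log2 difference of 1.23 ± 0.07 (edgeR adjusted p = 2.07e-10). Pfkp (platelet-type phosphofructokinase) was higher by 0.53 and Eno2 (the neuronal enolase) by 0.19. Gapdh and Pgam1, the steps on either side of Pgk1 that the 10 genes leave out, each differed by 0.13 and were not called (adjusted p = 0.351 and 0.336).

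Of 14 genes that carry pyruvate into mitochondria or govern its entry to the citric acid cycle, 4 were called higher in DVC input and 1 lower. Pcx (pyruvate carboxylase, strong in astrocytes) was higher by 1.09, Pdk2 (a kinase that shuts pyruvate dehydrogenase) by 0.81 and Mpc1 (a mitochondrial pyruvate carrier subunit) by 0.59, and Pdk1 was lower (-0.60). Among 9 genes of the shuttles that carry NADH electrons from the cytosol, 4 were higher and 1 lower. Gpd1, the cytosolic glycerol-3-phosphate dehydrogenase, had 104 to 191 CPM in DVC input against 6.74 to 37.5 CPM in MBH input, a log2 difference of 3.14. Glucose and lactate transporters were called higher for 5 of 10 genes. Among them were Slc2a1 (the glucose transporter of vessels and astrocytes) by 1.34 and Bsg (basigin, the partner of lactate transporters) by 0.78. Also among the 5 were Slc16a7 and Slc2a6, with a count of 0 in 9 and 5 of 12 MBH inputs. Their medians in DVC input were 4.16 and 10.9 CPM, so no fold is given for them. No gene of 9 tested regulators, such as the Pfkfb enzymes and Hif1a, was called (edgeR, lowest adjusted p = 0.165; 0 had an unadjusted p under 0.05).

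On pS6 ribosomes the lactate dehydrogenase difference was again present. Between DVC IP and MBH IP, 2 of 10 enzymes were called, where 5.89% of 17230 genes were, 3.11% higher and 2.79% lower: Ldhb higher and Ldha lower in DVC. Ldhb in DVC IP had a lowest, median and highest level of 1470, 3450 and 4500 CPM, against 386, 670 and 1660 CPM in MBH IP, a log2 difference of 1.67 ± 0.31 (edgeR adjusted p = 0.00244). Ldha had 191, 660 and 940 CPM in DVC IP against 616, 933 and 1910 CPM in MBH IP, a difference of -0.95 ± 0.26 (adjusted p = 0.0317). Levels of both genes overlapped between the regions, but the log2 ratio of Ldhb to Ldha reads did not, at 1.67 to 3.35 in DVC IP and -1.06 to 0.1 in MBH IP.

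The Ldha call on ribosomes was close to the threshold. It was lost without DVC IP AC3174 sample 3 (adjusted p = 0.0595), without DVC IP combination sample 1 (0.0501), without MBH IP AC3174 sample 2 (0.0509), without MBH IP saline sample 2 (0.0551) and without all libraries under 12000 genes (-0.79, 0.168). Upper-quartile scaling kept the Ldha call and lost that of Ldhb (1.29, adjusted p = 0.0584). Log2 differences of the other enzymes, DVC IP minus MBH IP, ran from 0.02 for Hk1 to 0.98 ± 0.35 for Pgk1 and 0.83 ± 0.31 for Pkm, whose adjusted p were 1.0, 0.11 and 0.125. Of the neuron markers, 6 of 10 were called higher in DVC IP than in MBH IP; their part in these differences was not tested. Pkm was called without MBH IP AC3174 sample 2 (1.04, adjusted p = 0.0386). With the library's code-number pair from the labels as a covariate, 4 more enzymes were called higher in DVC IP: Pgk1 (0.97, adjusted p = 0.0418), Pkm (0.83, 0.0471), Aldoa (0.66, 0.0392) and Tpi1 (0.46, 0.0403). Among related genes on ribosomes, Aldoc was the only called one of 14 isozymes and other glycolytic genes (1.46 higher in DVC IP), and 4 of 14 pyruvate genes were higher in DVC IP, namely Mpc1 by 1.77, Mpc2 by 1.35, Pdhb by 1.01 and Pdha1 by 0.87. Of 9 shuttle genes, Mdh1 (1.06), Got1 (1.01) and Got2 (0.98) were called higher, and 0 of 8 transporters and 0 of 9 regulators were called.

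In DVC, 5 of the 10 enzyme transcripts were called higher on pS6 ribosomes than in total RNA and 0 lower, where 20.4% of 18465 genes were called, 6.8% higher and 13.6% lower. The 5 were Pgk1, Ldhb, Pkm, Aldoa and Tpi1. The median log2 difference of the 10 was 0.46, while that of all genes tested was -0.37 with TMM factors, -0.47 with DESeq2-type factors and -0.24 with upper-quartile factors.

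Ldhb had a lowest, median and highest level of 1470, 3450 and 4500 CPM in DVC IP against 1310, 1470 and 1740 CPM in DVC input. Its log2 difference was 0.90 ± 0.18 (edgeR adjusted p = 0.0021), and IP was above input of the same sample in 12 of 12 samples. Pkm had 2970, 6090 and 7910 CPM in DVC IP against 2770, 2980 and 3400 CPM in DVC input. It was also higher in 12 of 12 samples, by 0.81 ± 0.17 (adjusted p = 0.00332). The lowest IP libraries of both genes lay within the input range, so the groups overlapped.

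Pgk1 had 203, 541 and 751 CPM in DVC IP against 176, 254 and 303 CPM in DVC input, a difference of 0.94 ± 0.20 (adjusted p = 0.0033), and was higher in 9 of 12 samples. Aldoa differed by 0.51 ± 0.14 (adjusted p = 0.0148) and Tpi1 by 0.39 ± 0.10 (adjusted p = 0.00957), each higher in 10 of 12 samples. With the sample as a block, which pairs each IP with its own input, Aldoa was not called (0.45, adjusted p = 0.0703), the other 4 were, and the count over all genes was 1401 in place of 3776.

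The other 5 enzymes were not called in DVC: Eno1 0.48 ± 0.22, Pfkm 0.44 ± 0.20, Hk1 0.36 ± 0.20, Ldha 0.32 ± 0.19 and Gpi1 0.11 ± 0.21 on the log2 scale, with adjusted p from 0.141 to 0.852. Gpi1 was at -0.02 with DESeq2-type factors. Eno1 was called without DVC AC170222 sample 3 (0.65, adjusted p = 0.0365), AC3174 sample 1 (0.66, 0.0495) or combination sample 1 (0.67, 0.0468), and Pfkm without AC3174 sample 3 (0.62, 0.0152).

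**Figure D3:**
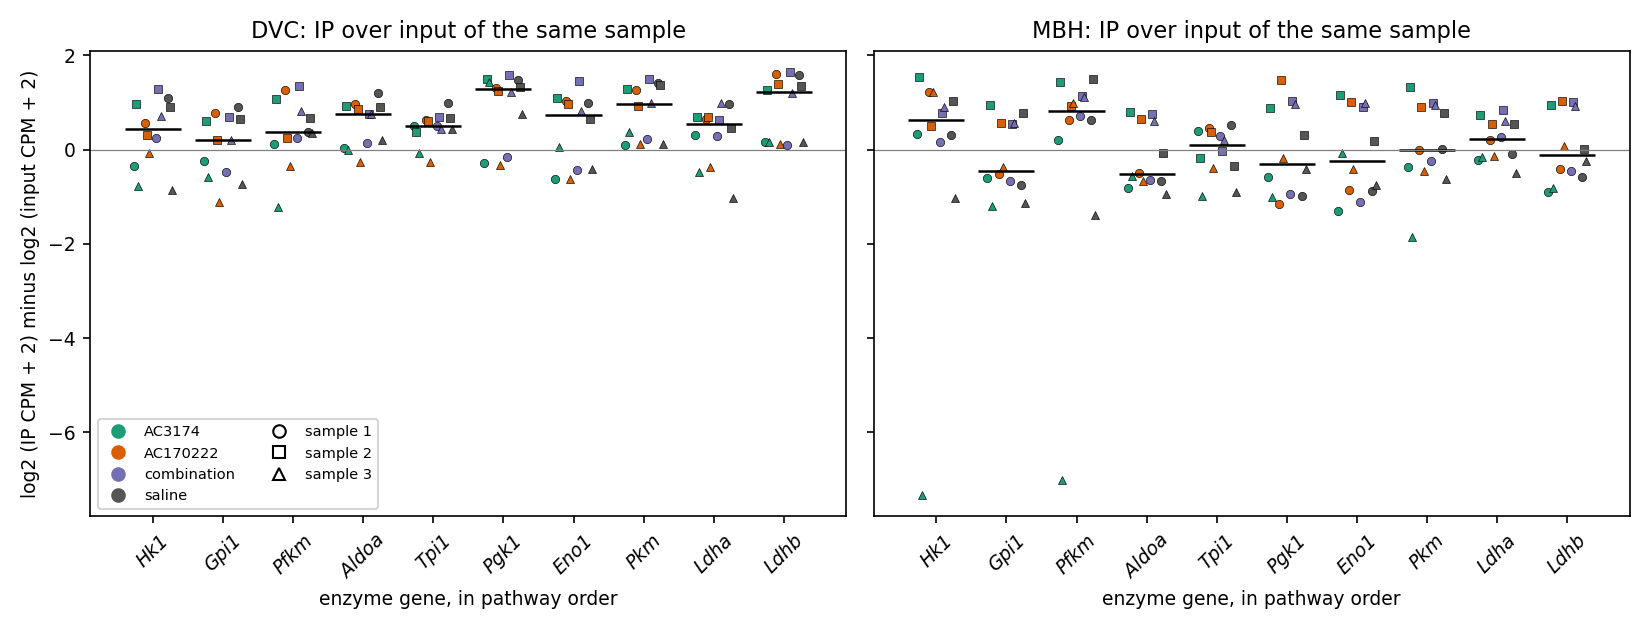
Difference between IP and input of the same sample for each enzyme (log2 of CPM + 2, IP minus input), in DVC at left and MBH at right, with colour for treatment and shape for sample number; lines mark the median of 12 samples. Ldhb and Pkm are above 0 in all 12 DVC samples, while in MBH the 10 medians run from -0.52 to 0.82.

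IP libraries differed in how much of these transcripts they held. The 10 enzymes summed to 13000, 26200 and 13100 CPM in AC3174 samples 1 to 3 of DVC IP, to 27900, 24900 and 11100 CPM with AC170222, to 14800, 27400 and 22000 CPM with the combination and to 26700, 26700 and 14600 CPM with saline. DVC inputs stayed within 11400 to 13700 CPM. In MBH IP the sums were 8070, 20800 and 5810 CPM with AC3174, 10400, 18800 and 9430 CPM with AC170222, 8450, 20600 and 18300 CPM with the combination and 9920, 20400 and 7150 CPM with saline. Every treatment thus had high and low IP libraries in both regions.

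**Figure D4:**
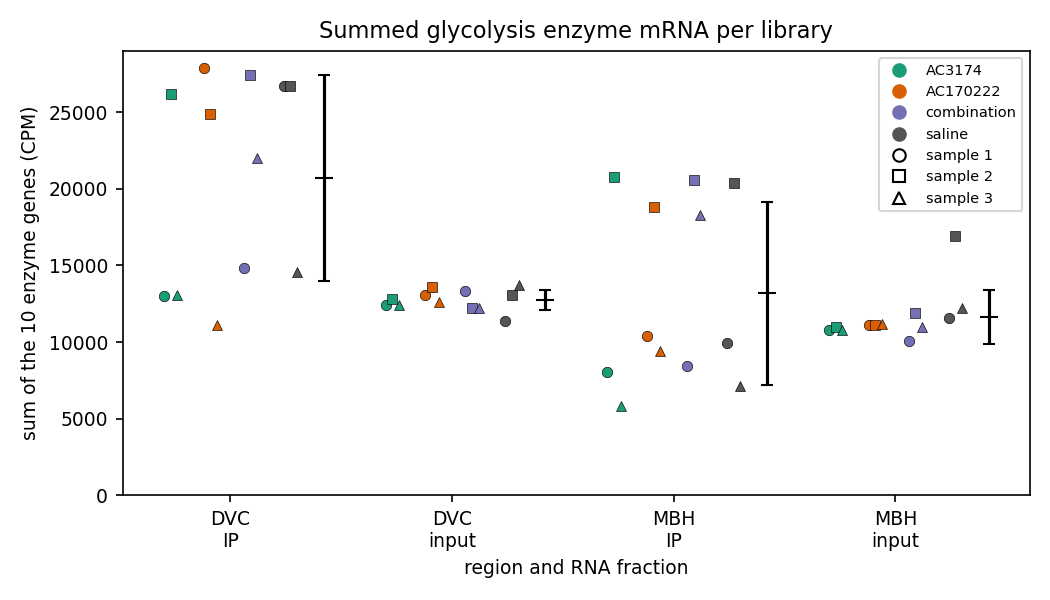
Sum of the 10 enzyme genes in each library (CPM), with colour for treatment and shape for sample number; the bar gives mean and SD over 12 libraries. IP libraries spread from 11100 to 27900 CPM in DVC and from 5810 to 20800 CPM in MBH, while DVC inputs stay within 11400 to 13700 CPM.

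The labels carry a code for each library, and its number went with this spread. In DVC IP the 4 libraries numbered 3 or 4, which hold 1 sample of each treatment, summed to 11100 to 14800 CPM, the 4 numbered 1 or 2 to 24900 to 27900 CPM and the 4 numbered 5 or 6 to 13100 to 27400 CPM. Saline and AC170222 libraries carry only numbers 1, 2 and 3, and AC3174 and combination libraries only 4, 5 and 6. Numbers 1 and 2 against 5 and 6 is thus also a contrast of treatments, and the 2 cannot be told apart. What the number stands for is not given. Within numbers 3 and 4, the median IP-to-input difference was 0.14 for Ldhb, 0.12 for Pkm, 0.09 for Aldoa, -0.22 for Pgk1 and 0.46 for Tpi1 on the log2(CPM + 2) scale. Within numbers 1 and 2, the same medians were 1.49, 1.32, 0.94, 1.32 and 0.64, and within 5 and 6 they were 1.23, 1.14, 0.76, 1.48 and 0.41. The median for Pgk1 thus had the opposite sign within numbers 3 and 4, where its 4 samples ran from -0.33 to 0.76. Of the enzymes not called in DVC, Eno1 (-0.62 to -0.4) and Gpi1 (-1.11 to -0.25) were below 0 in all 4. With the number pair as a covariate all 5 enzymes were still called. That covariate is shared by the IP and input of a sample. It could therefore not take up an IP-to-input difference that varies with the number, and such a dependence was not fitted. In MBH IP, numbers 3 and 4 gave 7150 to 9430 CPM, numbers 1 and 2 gave 9920 to 20400 CPM, and numbers 5 and 6 gave 5810 to 20800 CPM.

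Sums of neuron and oligodendrocyte markers also differed with the code number in DVC IP. In DVC IP the 10 neuron markers summed to 15100 to 22600 CPM in numbers 3 and 4, to 30600 to 37800 CPM in numbers 1 and 2 and to 22800 to 34700 CPM in numbers 5 and 6, against 12000 to 14000 CPM in all DVC inputs. The 9 oligodendrocyte markers summed to 3260 to 7270 CPM in numbers 3 and 4 and to 1600 to 2530 CPM in the other DVC IP libraries, against 6150 to 9120 CPM in DVC input. Between DVC IP and input, 5 of 10 neuron markers were called higher and 1 lower, 4 of 9 oligodendrocyte and 5 of 8 microglia markers were lower, and 2 of 9 astrocyte markers were higher. Of 6 endothelial markers, 3 were lower, with sums of 0 to 56.4 CPM in DVC IP against 0 to 21 CPM in DVC input, and 2 of the 6 were at 0 in all DVC IP libraries. The microglia sum was 0 to 49.6 CPM in DVC IP against 54.7 to 91.4 CPM in DVC input. Astrocyte sums in DVC IP were 1440 to 1790 CPM in numbers 3 and 4, 2160 to 2400 in 1 and 2 and 1370 to 3120 in 5 and 6. DVC IP AC3174 sample 3 had a low enzyme sum (13100 CPM) but only 2350 CPM of oligodendrocyte markers. In MBH IP the oligodendrocyte sums overlapped, at 1080 to 2350 CPM in numbers 3 and 4, 1680 to 3150 in 1 and 2 and 2180 to 2800 in 5 and 6. The part of cell type or of the library in the enzyme differences was not tested.

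Of the 14 genes of pyruvate entry into mitochondria, 6 were called higher in DVC IP than in input and 0 lower, where 6.8% of all genes were called higher. The other 8 were not called, among them Pdk1 at -0.46 and Pdk2 at -0.25 (adjusted p = 0.444 and 0.378). The 4 largest log2 differences were 0.85 for Dlat and for Mpc2, 0.76 for Mpc1 and 0.73 for Dld. Dlat and Dld encode subunits of the pyruvate dehydrogenase complex, and Mpc1 and Mpc2 the carrier that brings pyruvate into mitochondria. Of 9 NADH shuttle genes, 3 were called higher, namely Got2 by 0.62, Mdh2 by 0.61 and Mdh1 by 0.59, all enzymes of the malate-aspartate shuttle. Of 9 transporter genes, 0 were called higher and 4 lower, where 13.6% of all genes were called lower, among them Bsg by -0.96 ± 0.27 (adjusted p = 0.0163) and Slc2a3, the neuronal glucose transporter, by -1.29 ± 0.34 (adjusted p = 0.011). The lactate transporter genes Slc16a3 and Slc16a7 were also called lower but had a count of 0 in 10 and 9 of 12 DVC IP libraries and a median of 1.67 and 4.16 CPM in DVC input, so no fold is given for them.

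Among 16 tested isozymes and other glycolytic genes, Pfkp alone was called in DVC IP, higher by 0.58 (adjusted p = 0.00928). Aldoc was at 0.55 (adjusted p = 0.0602), Gapdh at 0.48 (0.0733), Eno2 at 0.46 (0.0698) and Pgam1 at 0.27 (0.225), none past the threshold. Of 9 regulators, Tigar, a phosphatase that opposes phosphofructokinase, was higher by 0.67. Adpgk, an ADP-dependent sugar kinase, was lower, with a count of 0 in 7 of 12 DVC IP libraries and 8.28 to 19.0 CPM in DVC input.

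In MBH, no enzyme was called between IP and input, where 0.452% of 17461 genes were, 0.16% higher in IP and 0.292% lower. Log2 differences ran from -0.06 ± 0.22 for Aldoa to 0.66 ± 0.51 for Pfkm, with 0 of 10 at an unadjusted p under 0.05 in edgeR and a lowest adjusted p of 0.742, and DESeq2 and both limma tests also called 0. Aldoa and Tpi1, at -0.06 and -0.02, had the opposite sign with DESeq2-type factors (0.03 and 0.10) and with upper-quartile factors (0.49 and 0.46). Hk1 had a count of 0 and Pfkm 0.37 CPM in MBH IP AC3174 sample 3, the library with fewest genes, while the other MBH IP libraries held 252 to 976 CPM of Hk1 and 158 to 917 CPM of Pfkm. Without the MBH libraries under 12000 genes, Pfkm was called higher in IP (0.74, adjusted p = 0.0166). No gene of the isozyme, regulator, transporter, pyruvate or shuttle lists was called in MBH by edgeR, and 4 had an unadjusted p under 0.05.

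Whether the IP-to-input difference itself differed between DVC and MBH was tested in 1 fit over all 48 libraries. None of the 10 enzymes was called by edgeR, where 4.39% of 19416 genes were, 2.33% higher and 2.06% lower, and DESeq2 and both limma tests called 0. At an unadjusted p under 0.05 were Pgk1 (0.84 ± 0.37, DVC minus MBH), Ldhb (0.78 ± 0.33), Aldoa (0.62 ± 0.27) and Tpi1 (0.47 ± 0.19), with a lowest adjusted p of 0.208. These values rest on the scaling: the median of all genes was 0.03 with TMM, -0.33 with DESeq2-type and -0.37 with upper-quartile factors, and under the last Ldhb stood at -0.09, Aldoa at -0.31, Tpi1 at -0.40 and Pgk1 at 0.01. Without libraries under 12000 genes, Pgk1 (1.26, adjusted p = 0.0291), Ldhb (1.12, 0.0369) and Aldoa (0.84, 0.0474) were called. Of the 14 pyruvate genes, Mpc2 (1.14) and Pdhb (0.94) were called by edgeR, both with a larger IP-to-input difference in DVC.

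Drug effects on the enzymes were tested in 20 comparisons, each drug against saline and the combination against each single drug, in both regions and fractions. AC3174 and combination libraries share no code number with saline or AC170222 libraries. In comparisons across these sides, drug and code number cannot be told apart. By edgeR, 0 enzymes and 0.0% of all genes were called in every one, while DESeq2 called 158 to 1144 of all genes. At an unadjusted p under 0.05, 3 enzymes for AC3174, 2 for AC170222 and 3 for the combination against saline were found in MBH input, where 8.59%, 6.57% and 8.57% of all genes were. In DVC input they numbered 2 for the combination against saline, 1 against AC3174 and 2 against AC170222, where 5.38%, 4.54% and 4.76% of all genes were, and elsewhere 0. DESeq2 called Hk1 for the combination against AC170222 in DVC input (-0.44, adjusted p = 0.0198), where edgeR gave -0.45 ± 0.12 (adjusted p = 0.929). Tests by limma-voom called Tpi1 (0.46, adjusted p = 0.00227) and Ldha (0.70, adjusted p = 0.0456) for the combination against AC170222 in MBH IP, and limma-trend called 0 enzymes in all 20 comparisons.

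The most even drug pattern was in MBH input. All 10 enzymes had negative log2 differences from saline with AC3174 and with AC170222, and 8 did with the combination, with medians of -0.33, -0.20 and -0.25 while all genes had 0.01, 0.04 and 0.08. These comparisons share the 3 saline libraries. Aldoa had 3456, 3371 and 3171 CPM with AC3174, 3489, 3313 and 3300 CPM with AC170222 and 3005, 3454 and 3276 CPM with the combination, against 3821, 5777 and 3486 CPM with saline. Eno1 had 971.9, 1021 and 795.7 CPM with AC3174, 1015, 865.7 and 833.9 CPM with AC170222 and 807.0, 905.4 and 918.4 CPM with the combination, against 1058, 1538 and 1131 CPM with saline. Every drug library of Eno1 lay below every saline library, as did those of Aldoa with AC3174 and the combination.

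Altogether 4 enzymes with AC3174 (Hk1, Aldoa, Pgk1 and Eno1), 3 with the combination (Aldoa, Pgk1 and Eno1) and 1 with AC170222 (Eno1) lay wholly below saline in MBH input, where 4.3%, 6.91% and 3.5% of all genes did. The highest saline value of Aldoa and Eno1 was in saline sample 2, the library that stood apart. Without it, the AC3174 difference was -0.11 in place of -0.38 for Aldoa, -0.22 in place of -0.41 for Eno1, -0.38 in place of -0.52 for Pgk1 and -0.09 in place of -0.57 for Ldhb. For the combination it was -0.14 in place of -0.40 for Aldoa, -0.29 in place of -0.48 for Eno1 and -0.03 in place of -0.51 for Ldhb. For AC170222 it was -0.12 in place of -0.38 for Aldoa, -0.27 in place of -0.46 for Eno1 and -0.04 in place of -0.52 for Ldhb. Without that library Tpi1 changed sign for all 3 treatments, and Ldha for the 2 single drugs. Tpi1 stood at 0.01 for AC3174, 0.04 for AC170222 and 0.08 for the combination. Ldha stood at 0.01 in place of -0.20 for AC3174 and at 0.05 in place of -0.16 for AC170222, so 8 of 10 enzymes were negative for these drugs. For the combination, every enzyme but Tpi1 was then negative, more than with that library. Hk1 stood at -0.09 and Pfkm at -0.02.

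In DVC input, Eno1 with AC3174 and Hk1 and Eno1 with the combination lay wholly below saline, where 4.79% and 4.98% of all genes did. Hk1 had 332.9, 317.8 and 346.5 CPM with the combination against 397.1, 401.7 and 483.5 CPM with saline, a log2 difference of -0.33. In the IP libraries of both regions, every enzyme overlapped between each drug and saline. Few genes of any kind did not: 2.87% to 4.2% of all genes lay wholly below saline in DVC IP and 2.88% to 4.76% in MBH IP. Wholly above saline lay 3.66% to 6.18% in DVC IP and 1.27% to 3.84% in MBH IP. The largest enzyme differences from saline in IP were 0.64 ± 1.34 for Pfkm with the combination and 0.58 ± 1.59 for Hk1 with AC170222, both in MBH IP and both with an edgeR adjusted p of 1.0.

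**Figure D5:**
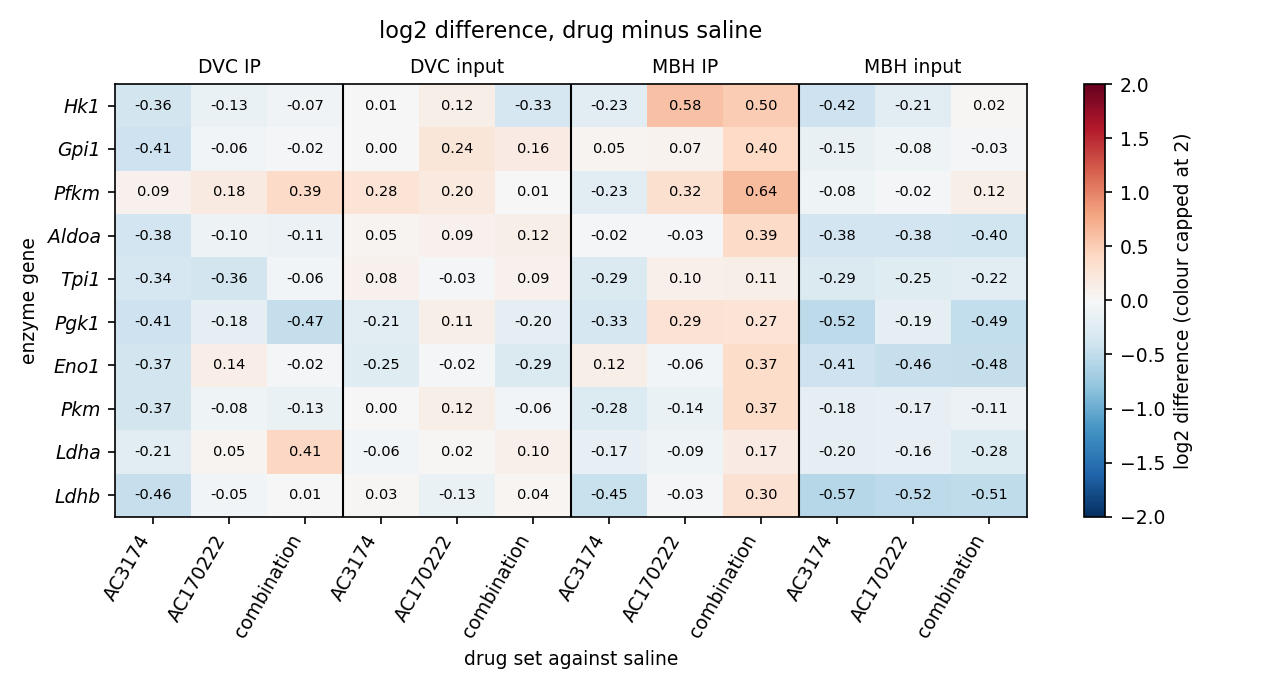
Log2 difference of each enzyme (rows, pathway order) between a drug and saline (columns) in DVC IP, DVC input, MBH IP and MBH input, from edgeR; the number in a cell is the value its colour shows. None is past the adjusted threshold, and the block of negative values in MBH input shares its 3 saline libraries.

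Across the 16 group means, 9 enzymes followed each other and Ldha did not. The Pearson correlation of an enzyme's log2(CPM + 2) with the mean of the other 9 was 0.925 for Pkm, 0.913 for Tpi1 and 0.872 for Pgk1, between 0.713 and 0.847 for Aldoa, Eno1, Pfkm, Ldhb, Gpi1 and Hk1, and -0.434 for Ldha. Of the 9663 other genes that averaged 10 CPM or more, those most like the mean of the 10 enzymes included Eno2 (0.937), Mdh1 (0.932), Armcx3 (0.93) and Hist3h2a (0.929). The points share regions, fractions and library depth, so these values describe the 16 groups and carry no test.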

How the data were processed

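RNA was amplified with the SMART-Seq v4 kit and made into Nextera XT libraries, per the labels' protocols. That keeps no strand and uses no molecular identifiers. The deposited table holds raw counts per Ensembl gene. TopHat2 2.0.11, HTSeq 0.6.1p1 and GRCm38 are named by the submitters' processing notes, and how multi-mapped reads were treated is not given in the sources used here. Of 38293 identifiers, 36345 matched GENCODE M21 gene names, and all 10 enzymes passed the filter on low counts in every comparison.

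Counts were tested with edgeR 4.0.16 (R 4.3.3) by its quasi-likelihood F test, 2-sided, with TMM factors and filterByExpr. Benjamini-Hochberg adjustment ran over every gene in the fit, and calls needed an adjusted p under 0.05. Region and fraction contrasts average the 4 within-treatment differences. Standard errors are the log2 difference over the square root of F. On simulated data with 100 genes changed by 1 on the log2 scale, the test recovered 100% for DVC IP versus input and 60% for AC3174 versus saline in DVC input. Every simulated gene had the same spread, set below the common biological coefficient of variation that edgeR fitted to the real libraries (1.354 and 0.918). Only genes with ample counts were changed, so recovery in the real data may be lower. Alternatives were other scalings, no filter, DESeq2 1.42.0, limma 3.58.1 (voom, and trend), sample blocks, the label's code-number pair as a covariate, and leaving out libraries.

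IP and input of 1 sample came from the same supernatant, per the labels' protocols, and share a sample number. They were taken as pairs in the per-sample differences and in the sample block only. The main tests of IP against input compared group means and did not use the pairing. Deviations of a sample's IP and input from their group means correlated with a median of 0.014 in DVC and 0.004 in MBH. No 2 libraries of a group agreed within sampling noise (lowest chi-square per degree of freedom 130.1 over 48 pairs).

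The members and lists were chosen with earlier results of these data known. Besides the 10 enzymes, the text names up to 4 called genes per list and comparison, largest log2 difference first, and Gapdh, Pgam1, Eno2 and Aldoc in any case. Some genes that these rules select are not reported here.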

Additional observations from a re-analysis of the deposited data

How the results depend on the processing

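The Ldha and Ldhb differences between DVC and MBH input kept their direction and their call under every alternative run, from -1.08 to -0.97 and from 0.87 to 1.05 on the log2 scale. Over all enzymes and alternatives, 5467 values kept their side of the threshold, 20 passed it newly, 13 fell short and none changed direction past it. Called enzymes for DVC IP versus input numbered 1 with limma-voom, in place of 5. For DVC versus MBH IP, in place of 2, they numbered 6 with the library set (the code-number pair) as a covariate, 4 with the replicate block (Pkm at 0.95 and Aldoa at 0.71 besides Ldha and Ldhb), and 1 with limma-voom, with upper-quartile factors or without libraries under 12000 genes. Whether DVC and MBH samples of 1 number are the same mice is not stated, so that block rests on a shared number alone. Over 12 such pairs, 4 in input and 6 in IP correlated by more than 0.1. Without libraries under 12000 genes, 1 enzyme was called for MBH IP versus input and 3 for the DVC minus MBH difference, in place of 0 each. For the combination versus AC170222, DESeq2 called 1 in DVC input and limma-voom 2 in MBH IP, in place of 0 each. Leaving out 1 library or sample at a time gave 5 to 6 enzymes for DVC IP versus input and for DVC versus MBH input, 1 to 2 for DVC versus MBH IP, and 0 elsewhere. The cause of these changes was not tested, except that voom's fitted trend of spread on level fell below 0 at high counts in 4 of 9 fits. Its standard error for Ldhb was 11.57 in DVC IP versus input and 36.36 between the IP regions. For that reason limma-trend was added after seeing the data, and it kept the number of called enzymes in all 25 comparisons.

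Counts over all genes moved more. DVC IP versus input had 3776, against 6091 with DESeq2, 6412 with limma-voom and 1401 with the replicate block, which moved the enzyme calls only for Aldoa there. MBH IP versus input had 79, against 1846 with DESeq2, 493 with limma-voom, 305 with limma-trend, 48 with the library set, 44 with no filter, 29 with upper-quartile factors, 3 with the replicate block and 363 without libraries under 12000 genes. Without AC3174 sample 1 it was 587, and it was 4 to 30 without AC3174 sample 2, AC170222 sample 2 or 3, or any combination or saline sample. DVC versus MBH IP had 1015, against 3230 with DESeq2, 372 with the replicate block and 600 to 662 without DVC IP AC170222 sample 1 or 2, AC3174 sample 2, any DVC IP combination sample, MBH IP combination sample 1 or 3 or MBH IP saline sample 1. The DVC minus MBH difference had 852, against 3256 with DESeq2, 1623 with limma-voom, 539 with upper-quartile factors, 200 with the replicate block, 1665 without libraries under 12000 genes and 486 to 567 without DVC AC170222 sample 2, AC3174 sample 2 or combination sample 2 or 3, any MBH combination sample or MBH saline sample 1. Higher and lower calls split 453 to 399 there, 153 to 491 with DESeq2-type factors and 58 to 481 with upper-quartile factors. Between the IP regions they split 535 to 480, and 283 to 556 with upper-quartile factors. For MBH IP versus input they split 28 to 51, and 40 to 44 and 14 to 15 with the same scalings. For the drugs, all genes called were 0 by edgeR, 158 to 1144 by DESeq2, 0 to 51 by limma-voom and 0 to 9 by limma-trend, and at most 7 by edgeR under the other settings. On simulated drug data, 60% of genes changed by 1 on the log2 scale were found. That simulation had less spread than the common value fitted to the real libraries. Drug differences of that size or smaller may therefore be missed at 3 libraries a group.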
